A study of Mus musculus with 2 samples.

Results

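The nuclear genes that encode subunits of oxidative phosphorylation were examined in long-term hematopoietic stem cells (LT-HSCs) of 2-year-old mice. Members were taken by gene name on the array: names that start with Ndufa, Ndufb, Ndufc, Ndufs or Ndufv and a digit, the Sdha to Sdhd genes, and names that start with Uqcr, Cox4 to Cox8 or Atp5. This rule found 85 of the 22598 named genes on the array, read by 124 probes. Of these 85 genes, 82 gave a signal well above background, in each case on both arrays, and 3 did so on neither array.

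The series holds 2 samples, 1 array of p38α+/+ LT-HSCs and 1 array whose label gives p38α Δ/Δ. p38α, the product of Mapk14, is the main p38 kinase of blood cells, and the study asked what its loss in the second year of life does to aging stem cells. The p38α Δ/Δ mice carried floxed p38α alleles and a tamoxifen-inducible Cre under the CAG promoter, which is active in most cell types and not only in blood, and received tamoxifen at about 1 year of age. The controls were of the same age, had received tamoxifen too and carried the same floxed alleles without Cre, so that the floxed alleles and the drug were common to both groups, whereas the Cre transgene was not. Both groups were C57BL/6J mice aged 2 years. Cells were sorted from femur and tibia marrow as CD150+CD48-Flt3-CD34- cells of the lineage-, Sca-1+, c-Kit+ (LSK) fraction in the sample labels, and the methods add CD41-. The number of mice behind each array was not given in the sources used here.

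Oxidative phosphorylation takes place in the inner mitochondrial membrane. Complex I (NADH dehydrogenase) and complex II (succinate dehydrogenase) pass electrons to ubiquinone, complex III (the cytochrome bc1 complex) passes them to cytochrome c, and complex IV (cytochrome c oxidase) passes them to oxygen, while complex V (ATP synthase) makes ATP from the proton gradient. Most subunits come from nuclear genes, and the mitochondrial genome encodes the central membrane subunits of complexes I, III, IV and V, so that both genomes have to supply each of these complexes. LT-HSCs are known as cells that rely largely on glycolysis and keep respiration low while quiescent.

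Single-colour arrays give a brightness per probe. All values below are log2 signals relative to the 75th percentile of the same array, and all differences are log2 values of the array labelled for the deletion (called the Δ/Δ-labelled array) minus the p38α+/+ array. A difference of 0.322 or more on this scale, in either direction, is counted as a moderate one. Signals of different probes cannot be ranked against each other. With 1 array per genotype there was no spread between mice and therefore no test, and counts of members are given beside the same counts over the 17240 named genes well above background on 1 or both arrays. Repeated spots of a probe gave the only measured error, a standard deviation (SD) of 0.13 for a difference between single spots, which covers the array and not the animals. Of 55662 probes, 67.9% gave a signal well above background with p38α+/+ RNA and 69.1% with the other RNA.

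The targeted gene differed between the arrays by less than the spot SD. One Mapk14 probe (mm9, chr17:28885290-28885349) read 2.34 on the p38α+/+ array and 2.31 on the Δ/Δ-labelled array, and the other (mm9, chr17:28873965-28874024) read 2.08 and 2.03, differences of -0.04 and -0.05. Whether either probe lies in the deleted part of the gene was not established, and all directions given here rest on the labels. The study checked the deletion in genomic DNA by quantitative PCR, which was not analysed here.

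Nuclear oxidative phosphorylation genes were lower on the Δ/Δ-labelled array by a small amount that most members shared. The median difference over the 82 measured members was -0.29, a 1.22-fold lower signal, and the middle part of the members (quartiles) ran from -0.44 to -0.07. The signal was lower for 69 of 82 members (84.1%), against 52.3% of all named genes, and higher for 13, against 47.7%. The median over all named genes was -0.03. A moderate difference was seen in 36 members in the lower direction (43.9%, against 28.5% of all named genes) and in 2 members in the higher direction (2.44%, against 26.2%). At their brightest probe no member differed by 2-fold either way, whereas 7.63% of all named genes were lower by 2-fold or more and 5.97% higher by as much. Such differences were rare among genes of like brightness. Of the 2197 named genes within the quartiles of the members' mean signal, 21 were lower by 2-fold or more and 15 higher. In that range 25.4% were moderately lower and 14.4% moderately higher. The members therefore shared a direction, and their lack of large single differences at the brightest probe was not particular to them. Ribosomal protein and proteasome genes, given below, shared that direction too. For 28 members the difference was smaller than the spot SD, while 51 members were lower and 3 higher by more than that. The share of all named genes past the spot SD was not computed, so these counts have no background beside them.

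**Figure D1:**
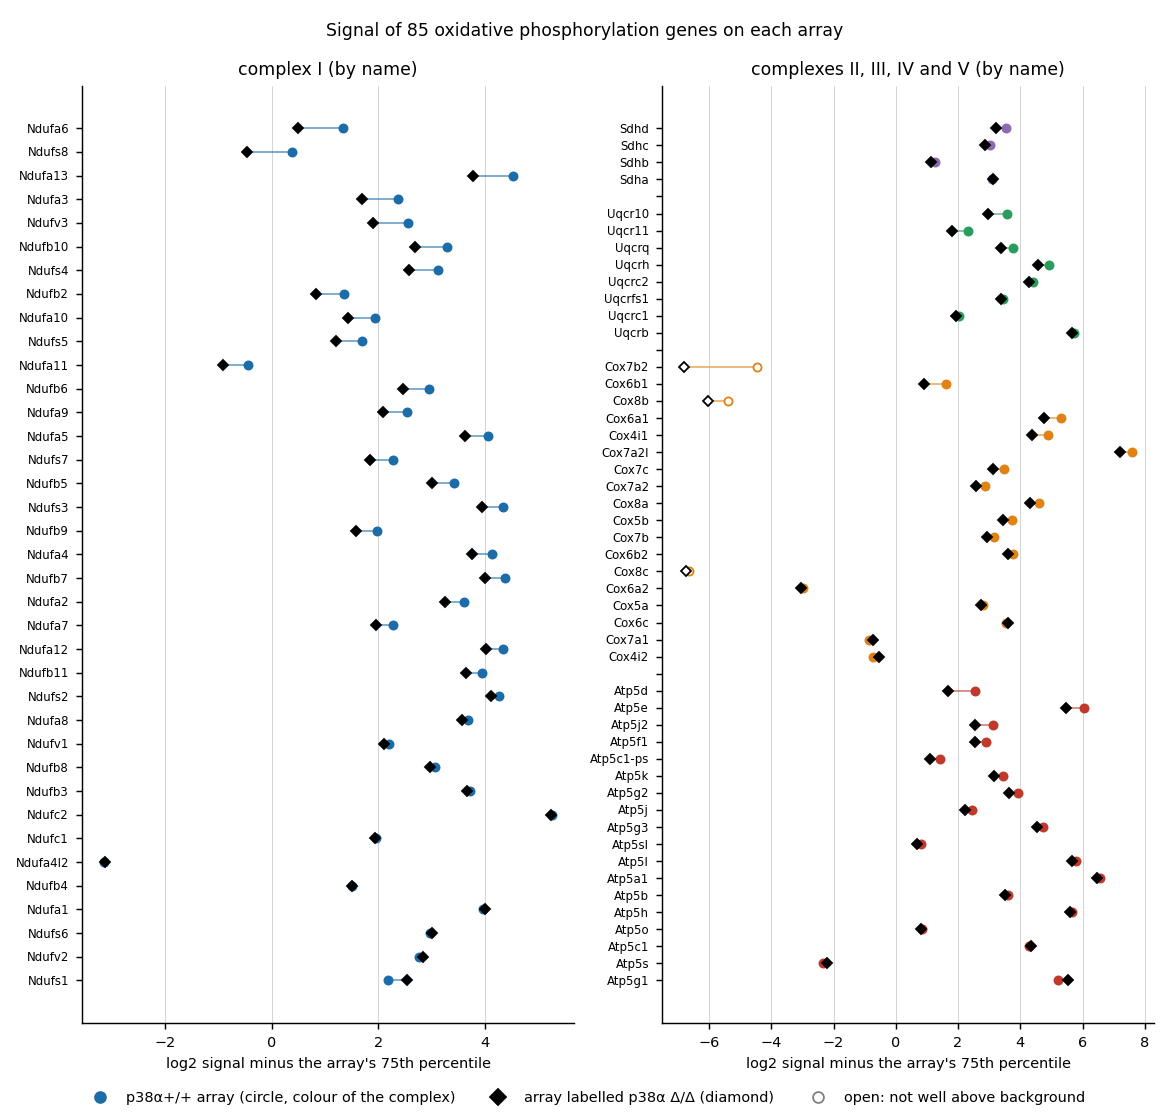
Each row is 1 of the 85 genes, ordered by its difference within each complex, and the x axis is the log2 signal less the 75th percentile of its array. Circles are the p38α+/+ array and diamonds the Δ/Δ-labelled array, with 1 array each; open symbols, seen for Cox7b2, Cox8b and Cox8c, were not well above background. The diamond lies left of the circle for 69 of the 82 measured genes, and most of the gaps are a fraction of 1 log2 unit.

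By complex, the median difference was -0.38 for complex I (37 genes by name), -0.16 for complex II (4 genes), -0.24 for complex III (8 genes), -0.29 for complex IV (15 measured genes) and -0.14 for complex V (18 genes). Lower signals were counted in 31 of 37, 3 of 4, 8 of 8, 12 of 15 and 15 of 18 genes. The share of all named genes that were lower was 52.3%. Moderately lower were 23 of 37 genes of complex I, 0 of 4 of complex II, 4 of 8 of complex III, 5 of 15 of complex IV and 4 of 18 of complex V. As shares these were 62.2%, 0%, 50.0%, 33.3% and 22.2%, beside 28.5% of all named genes. Complex II lay below that share and complexes IV and V near it. The 18 names of complex V hold a pseudogene, Atp5c1-ps, and also Atp5s and Atp5sl, which are not subunits. Their differences were -0.31, 0.11 and -0.11, and without them the complex V median was -0.18. The order of the complexes is a description of these 2 arrays.

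Within complex I, the 28 accessory subunits had a median of -0.41 and the 7 core subunits one of -0.16. Core subunits carry the flavin, the iron-sulfur clusters and the catalytic steps, and accessory subunits surround and stabilize them. Of the accessory genes 25 of 28 were lower and 19 moderately so, and of the core genes 5 of 7 were lower and 3 moderately so. Beside these stand 52.3% of all named genes lower and 28.5% moderately lower. Complex III was similar: its 5 accessory genes had a median of -0.36 and its 3 core genes one of -0.09. In both complexes the accessory genes thus had the larger median difference, which rests on few core genes and was not tested. Single genes departed from this, with the core gene Ndufs8 at -0.83 and the accessory gene Uqcrb at -0.07. Cyc1 of complex III, which the naming rule leaves out, differed by -0.33 and is not among the 3 core genes.

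Ndufa6, an accessory subunit of the LYR protein family, was among the genes with the largest differences in complex I. It read 1.34 on the p38α+/+ array and 0.49 on the Δ/Δ-labelled array, a difference of -0.85 (1.80-fold lower), from a single probe (mm9, chr15:82181444-82181503), and -0.72 with normexp. Ndufs8, a core subunit that holds iron-sulfur clusters, read 0.37 and -0.46, a difference of -0.83, which was -0.55 with the normexp background correction. Ndufa13, also known as GRIM-19, read 4.52 and 3.76, a difference of -0.76, and -0.83 with normexp. The order of these 3 depended on the processing, and with probes averaged per gene Ndufa3 came first in complex I, at -0.86. The differences of Ndufa6, Ndufs8 and Ndufa13 were several times the spot SD.

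Other accessory genes of complex I followed at smaller sizes. Ndufb10 read 3.28 and 2.69, a difference of -0.59. Ndufs4, whose human counterpart is a frequent site of mutation in Leigh syndrome, read 3.11 and 2.58, a difference of -0.54. Ndufa10 read 1.94 and 1.43 (-0.51), and Ndufa9, a subunit near the ubiquinone site, read 2.53 and 2.09 (-0.45). Ndufs3 and Ndufs7, core subunits of the matrix arm, differed by -0.41 and -0.42. The 2 arrays therefore separated for genes of both arms of the complex.

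Not all complex I genes were lower. Ndufs1, the largest core subunit and the holder of several iron-sulfur clusters, was the one complex I gene that was moderately higher, with 2.19 on the p38α+/+ array and 2.54 on the Δ/Δ-labelled array, a difference of 0.36 at a single probe (mm9, chr1:63190360-63190419). Ndufv2, which also holds an iron-sulfur cluster, read 2.76 and 2.83. Ndufc2, the member of complex I with the brightest probe, read 5.25 and 5.23. Ndufs6, Ndufa1 and Ndufb4 differed by 0.04, 0.03 and 0.01, all under the spot SD.

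Complex II, the one complex with no mitochondrially encoded subunit, had no member with a moderate difference at its brightest probe, but the widest disagreement between probes. Sdhd, one of its membrane anchors, read 3.55 and 3.23 (-0.316, just short of a moderate difference), and Sdhc, the other anchor, read 3.04 and 2.85 (-0.19), with -0.38 at its second probe. With normexp both were moderately lower (-0.42 and -0.40). Sdha, the flavoprotein, read 3.10 and 3.12 (0.02). Sdhb, the iron-sulfur subunit, read 1.13 on the Δ/Δ-labelled array at its brighter probe, a difference of -0.12, but went from 0.33 to -0.79 (-1.12) at the other. The first bases of these probes, shown because the value of Sdhb depends on them, were as follows (60-base probes, first 30 bases, 5′ to 3′).
Sdhb, mm9 chr4:140535052-140535108: tgtcaaacagctggagtctccctaagtaca
Sdhb, mm9 chr4:140529606-140529665: aaatccattgagccttatctgaagaagaag
The probes lie at separate places of the gene. The complex II median moved from -0.16 to -0.30 when a gene's probes were averaged and to -0.35 when its dimmest probe was used.

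In complex III all 8 measured genes were lower, beside 52.3% of all named genes. Uqcr10, a small accessory subunit, showed the largest difference: its 3 probes read 3.56, 3.51 and 3.21 on the p38α+/+ array and 2.95, 2.91 and 2.52 on the Δ/Δ-labelled array, and the probes differed by -0.59 to -0.69. Uqcr11 read 2.31 and 1.82 (-0.49), Uqcrq 3.75 and 3.39 (-0.36) and Uqcrh 4.91 and 4.57 (-0.35), with a second probe lower in each. Uqcrb, a ubiquinone-binding accessory subunit and the member of complex III with the brightest probe, read 5.71 and 5.65 (-0.07), and its 3 probes lay between -0.09 and -0.03. The probes of Uqcr11 overlap, as do those of Uqcrh and Uqcrb and some of those of Uqcr10. Overlapping probes are not independent readings. The 2 core proteins and the Rieske iron-sulfur protein Uqcrfs1 lay between -0.14 and -0.09. Uqcrc2, a core protein, was read by 9 usable spots of 1 probe, all lower, with differences from -0.25 to -0.06, a mean of -0.14 and an SD of 0.06. These spots share 1 array per genotype and give the error of the spots alone.

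Complex IV has ubiquitous subunits and, for several of them, isoforms known from muscle, lung or testis. The 11 ubiquitous genes, counting Ndufa4, which was named for complex I and is now placed in complex IV, had a median of -0.30. Of them 10 of 11 were lower, beside 52.3% of all named genes. Cox6b1, which sits on the outer face of the complex, read 1.60 and 0.90 (-0.70, or 1.63-fold lower) and showed the largest difference. Cox6a1 read 5.31 and 4.75 (-0.56), and Cox4i1, which binds ATP as a regulatory subunit, read 4.90 and 4.39 (-0.51). Cox6c, at 3.55 and 3.59, was the one ubiquitous gene that was not lower.

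The 5 measured tissue isoforms had a median of 0.01, with 2 lower and 3 higher, none of them by a moderate difference. Under loess the median was -0.05 with 3 of 5 lower, and with normexp it was 0.12 with 1 of 5 lower, so their direction depended on the processing. Cox4i2, known from lung, read -0.75 and -0.55 (0.20), beside -0.51 for its ubiquitous partner Cox4i1. The muscle isoform Cox6a2 read -2.97 and -3.04 (-0.07), beside -0.56 for Cox6a1, although it was 0.15 with normexp and -0.18 under loess. Cox7a1, the heart and muscle isoform, differed by 0.13 and its partner Cox7a2 by -0.30. The testis isoform Cox6b2 was well above background at 3.76 and 3.61 (-0.15), and Ndufa4l2, the partner of Ndufa4 (-0.38), read -3.14 and -3.13. Cox7b2, Cox8b and Cox8c gave no signal well above background, and no fold is given for them, while their partners Cox7b and Cox8a differed by -0.21 and -0.29.

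Cox7a2l, which the rule counts in complex IV by its name, is a factor that joins complexes III and IV and not a subunit of the enzyme alone. It had the brightest probe of the complex IV names, with 7.59 and 7.21 (-0.38), and its second probe differed by -0.31. The remaining probe gave 3.87 and 2.67, a difference of -1.20. The direction was shared by its 3 probes and the size was not.

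In complex V the largest differences lay in the small subunits of the central stalk. Atp5d (subunit delta) read 2.54 on the p38α+/+ array and 1.68 on the Δ/Δ-labelled array, a difference of -0.86 (1.81-fold lower), the largest among all members in this setting, whereas under loess it was -0.79 and Ndufs8 came first at -0.83. Atp5e (subunit epsilon) read 6.06 and 5.48 (-0.58). The catalytic head did not follow: Atp5a1 (alpha), the member with the brightest probe of the complex, read 6.57 and 6.47 (-0.11), and Atp5b (beta) 3.60 and 3.52 (-0.08). Atp5c1 (gamma), the shaft of the same stalk, gave 0.08 at one probe and -0.25 at the other. In the membrane part, Atp5j2 (subunit f) differed by -0.58 and -0.52 at its 2 probes. The 4 peripheral stalk genes had a median of -0.15.

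The 3 Atp5g genes encode the same mature subunit c of the proton-carrying ring and differ in their targeting peptides, and they went in different directions here. Atp5g1 read 5.20 and 5.53 at one probe (0.323, just past a moderate difference) and 1.14 and 1.39 at the other (0.24). Atp5g2 read 3.93 and 3.65 at its brightest probe (-0.28), and its 3 probes lay between -0.28 and -0.17. Atp5g3 read 4.72 and 4.54 (-0.18) at its only probe. Atp5g1 was the one complex V gene that was moderately higher. The first bases of these probes are shown because the 3 transcripts had to be read apart (60-base probes, first 30 bases, 5′ to 3′, minus strand of mm9).
Atp5g1, chr11:95930317-95930376: tttcaattattaaaagctttaagggctggc
Atp5g1, chr11:95934315-95934374: tgccagtcctggtgctggagtctactgagc
Atp5g2, chr15:102493359-102493418: atggttctttcgtgtctcgtctgccctgta
Atp5g3, chr2:73746519-73746578: ccgaagactgtagtactggtgtcatggaaa

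Of the members, 27 were read by 2 or more probes well above background. All probes were lower for 22 of them and higher for 2 (Atp5g1 and Ndufb4), and probes lay on both sides of 0 for 3 (Atp5c1, Cox7c and Ndufb11). The median range between probes of a gene was 0.13, about the spot SD, and 19 of 27 genes had all probes within 0.2. The wider ranges kept to one side for Ndufa3 (-1.05 and -0.67), Ndufa5 (-0.92 and -0.44) and Ndufv3 (-0.85, -0.66 and -0.18), accessory genes of complex I whose probes lie at separate places of each gene. Over single probes, 103 of 120 were lower. Some of these probes overlap, as do those of Atp5l, where 6 probes close together lay between -0.30 and -0.11, so they are not independent readings.

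**Figure D2:**
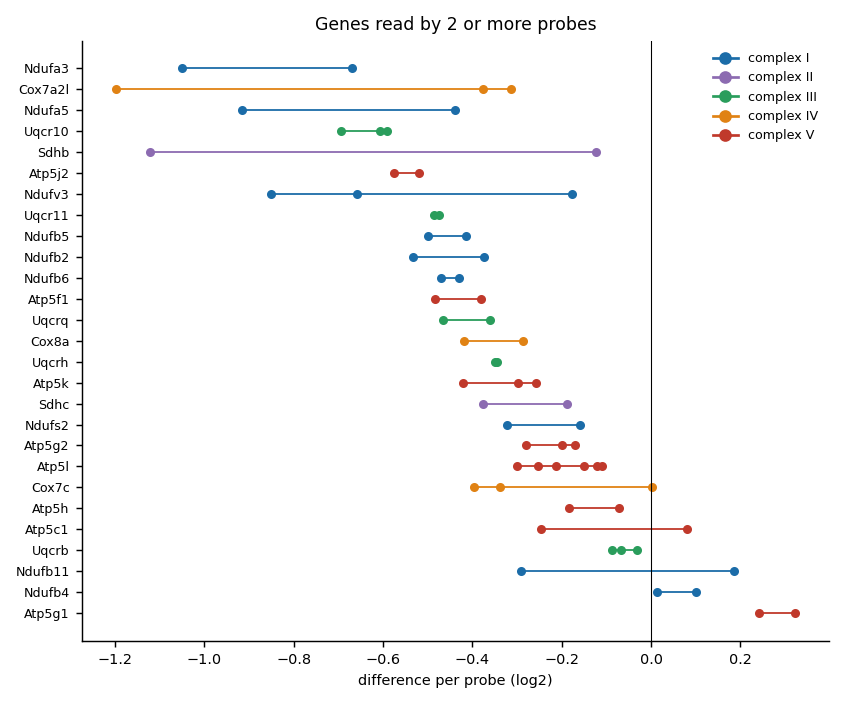
Each row is 1 of the 27 members with 2 or more probes well above background on both arrays, each point is 1 probe, and the x axis is its log2 difference (Δ/Δ-labelled array minus p38α+/+ array). Colours give the complex. The points of 22 genes lie wholly left of 0, and the widest range is that of Sdhb, from -1.12 to -0.12.

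The genes of the mitochondrial genome went the other way. The array carries probes named for all 13 protein genes, all well above background on both arrays. On the Δ/Δ-labelled array 12 of 13 were higher, beside 47.7% of all named genes, with a median of 0.35 (1.28-fold). A moderate difference was seen in 8 of 13 in the higher direction, against 26.2% of all named genes, and in 0 in the lower direction. These genes share a single small genome and are not independent readings, unlike most of the named genes they are set beside. This comparison was chosen after values had been seen.

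The mitochondrially encoded subunits of complex I held both the largest difference and the exception. ND1 read 5.68 on the p38α+/+ array and 6.26 on the Δ/Δ-labelled array (0.58), ND4L 6.41 and 6.89 (0.49), ND2 4.22 and 4.70 (0.48), ND4 7.10 and 7.42 (0.33), ND5 6.89 and 7.13 (0.24) and ND6, the one gene on the light strand, 6.49 and 6.69 (0.20). ND3 read 3.96 and 3.78 (-0.19). The array's design places the ND3 probe on a nuclear chromosome and the other 12 probes on chrM, so these 2 probes are shown (first 30 of 60 bases, 5′ to 3′).
ND1, mm9 chrM:2898-2957, plus strand: gcagacgccataaaattatttataaaagaa
ND3, mm9 chr1:24619613-24619672, minus strand: caattctatctctaggcctagcatatgaat

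In the other complexes the mitochondrial genes were also higher. CYTB, the cytochrome b of complex III, read 6.13 and 6.51 (0.38). COX3 of complex IV read 6.64 and 6.99 (0.36), while COX1 and COX2, the catalytic subunits, differed by 0.13 and 0.12, under the spot SD. ATP6 and ATP8 of the ATP synthase membrane part read 7.74 and 8.09 (0.35) and 4.35 and 4.73 (0.38). In each of the 4 complexes built from both genomes, the nuclear median was thus below 0, and every mitochondrial gene except ND3 was above 0.

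The gap between the medians of the mitochondrial and the nuclear genes was 0.64, and it lay between 0.54 and 0.66 under all alternatives tried. A constant added to 1 array cannot change it. Signals of the 2 sets were not alike in brightness: the mean log2 signal of the mitochondrial genes had a median of 6.58 and that of the members one of 3.03. Over the 1105 named genes in the same range of mean signal as the mitochondrial genes (3.87 to 7.91), the median difference was -0.09, with 20.0% moderately lower and 17.9% moderately higher. Over the 2197 named genes within the quartiles of the members' mean signal (2.04 to 3.97), the median was -0.11. Of these genes 62.3% were lower, 25.4% moderately lower and 14.4% moderately higher. Genes as bright as the members were thus somewhat lower as a whole, by less than the members. With the brightness trend removed by loess, the member median was -0.19, and 61 of 82 members were lower. Members whose probes held more G and C bases tended to lower differences (rank correlation -0.26, beside 0.02 over all named genes). The probes of Ndufs8, Ndufa13 and Atp5d held 55% G and C and that of Ndufa6 45%, beside a member median of 44.2%. The part of probe composition in these differences was not tested.

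**Figure D3:**
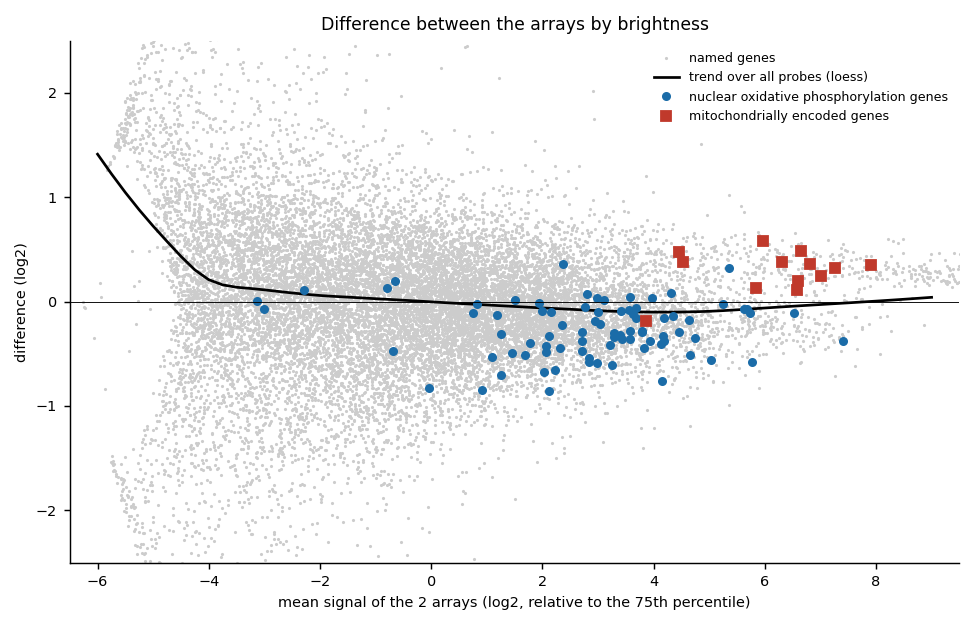
Each grey point is a named gene, the x axis is the mean log2 signal of both arrays relative to the 75th percentile and the y axis the log2 difference (Δ/Δ-labelled array minus p38α+/+ array), cropped at 2.5 either way. Blue circles are the 82 measured members, red squares the 13 mitochondrially encoded genes, and the line is the loess trend over all probes well above background on 1 or both arrays. Most blue circles lie below the line and all red squares except ND3 above it.

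Genes that act beside the subunits were counted from lists written from general knowledge. Of 6 subunits and partners that the naming rule leaves out, 5 were lower (83.3%, beside 52.3% of all named genes), with a median of -0.23. Among them Ndufab1, the acyl carrier protein of complex I, differed by -0.29 and Cyc1, the cytochrome c1 of complex III, by -0.33, and the largest difference was that of Atp5mpl (-0.37), a small ATP synthase subunit. Cycs, the electron carrier cytochrome c, was the exception, at 1.67 on the p38α+/+ array and 2.24 on the Δ/Δ-labelled array (0.57).

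Assembly factors, which build the complexes and are not part of them, had a median of -0.34 over 45 measured genes, close to that of complex I. Of these, 33 of 45 were lower (73.3%, beside 52.3% of all named genes). Moderately lower were 23 (51.1%, beside 28.5%), and moderately higher were 5 (11.1%, beside 26.2%). The list was dimmer than the members, with a median mean signal of 0.39 against 3.03. The largest difference was that of the complex I factor Tmem186, which read -1.40 and -3.16 (-1.76), and the largest in the other direction that of Ndufaf3, another complex I factor, which read -2.87 and -1.77 (1.11). Both signals were dim, and the list spread more widely than the subunits did.

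Enzymes of the tricarboxylic acid (TCA) cycle had a median of -0.09 over 16 genes, with 12 of 16 lower (75.0%, beside 52.3% of all named genes) and 4 moderately so, a smaller share than the 28.5% of all named genes. They ran from Idh3b, a subunit of isocitrate dehydrogenase (-0.97), to Dlat, a subunit of pyruvate dehydrogenase (0.56). Regulators of mitochondrial biogenesis had a median of 0.12 over 14 genes, with 5 lower and 9 higher (1 and 5 moderately so). Tfb1m, a mitochondrial ribosomal RNA methyltransferase, differed by -0.48 and Gabpb2, a partner subunit of the factor GABP, by 1.03. Nrf1, a known activator of respiratory chain genes, read 1.55 and 2.04 (0.50), Gabpa, the DNA-binding subunit of GABP, read 1.27 and 1.11 (-0.17), and Tfam, which packages and transcribes mitochondrial DNA, read 2.28 and 1.97 (-0.31). The 10 genes of mitochondrial DNA maintenance had a median of 0.10, with 4 lower and 6 higher (3 and 2 moderately so), and ran, where measured on both arrays, from Polg2 (-0.68) to the helicase Twnk (0.41). Both medians were under the spot SD, and 47.7% of all named genes were higher.

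Lower signals were also common in other sets of housekeeping genes. The 78 genes of the mitochondrial ribosome (names in Mrpl and Mrps) had a median of -0.20, with 58 lower (74.4%). The 80 genes of the cytosolic ribosome (Rpl and Rps), many of which have near-identical copies, had a median of -0.28, with 69 lower (86.25%). For the 39 proteasome genes (Psm) the median was -0.31, with 35 lower (89.7%). Beside these stand 84.1% of the members and 52.3% of all named genes. The shared direction was thus not particular to the members.

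**Figure D4:**
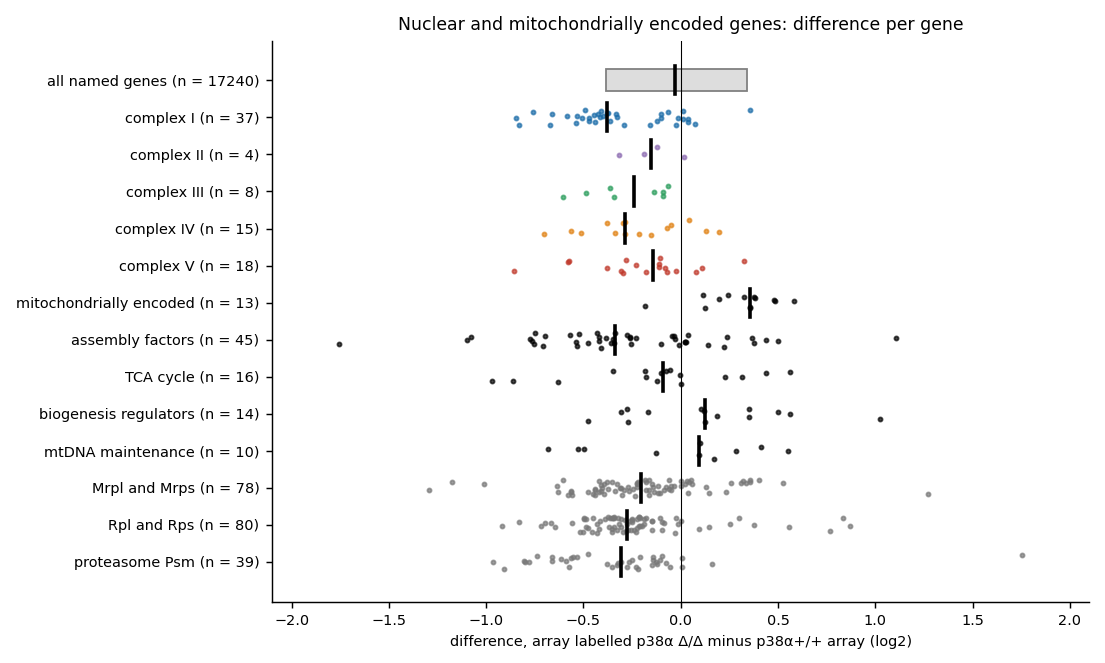
Each point is a gene, placed by its log2 difference (Δ/Δ-labelled array minus p38α+/+ array), with the sets in rows, n genes measured in each and a black bar at the median; all named genes are drawn as the box between their quartiles. Complexes I to V, the assembly factors, both ribosomes and the proteasome have medians left of 0, and the mitochondrially encoded genes have theirs at 0.35. Points beyond 2.1 either way are cropped.

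Markers of cell types moved between the arrays too. Of 18 genes of HSC identity 17 were lower on the Δ/Δ-labelled array, beside 52.3% of all named genes, with a median of -0.53. Their summed signal, in multiples of the 75th percentile, went from 214 with p38α+/+ RNA to 167 with the other. Among the defining markers Procr read 4.38 and 3.17 and Slamf1, the gene of CD150, -1.26 and -2.08, and all 18 were well above background on both arrays. Of the B cell genes, 6 were measured on both arrays, and all 6 were higher, with a median of 0.59. Ebf1, Ms4a1 and Vpreb3 were well above background on the Δ/Δ-labelled array alone and so could only count as higher. The summed signal of the 9 genes went from 3.85 to 19.0, most of it Jchain, without which it went from 2.71 to 3.74. Neutrophil and monocyte genes were higher in 10 of 14 (summed signal 219 and 299, or 37.4 and 56.7 without Itgam). Elane, Lyz2 and Prtn3 were lower (-1.41, -0.96 and -0.48). Ly6g was well above background on the p38α+/+ array alone and so could only count as lower. T and NK cell genes were higher in 5 of 7 (20.5 and 24.6), with Zap70 (-4.43) and Klrb1c (-0.53) lower. Erythroid genes were higher in 7 of 9 (sum 1.39 times as high), with Hbb-bt (-1.10) and Hba-a1 (-0.57) lower. Megakaryocyte genes were higher in 4 of 7 (78.4 and 74.1) and endothelial and stromal genes in 3 of 7 (6.84 and 6.71), beside 47.7% of all named genes. The megakaryocyte gene Gp6 was well above background on the Δ/Δ-labelled array alone and so could only count as higher. The 5 markers that the sort excludes had a median of 0.07, with Cd48 at 1.37, Flt3 at 0.36, Il7r at 0.07, Cd34 at -0.15 and Itga2b, the gene of CD41, at -0.37. The part of these differences in the result on oxidative phosphorylation was not tested. In RNA of sorted cells, fewer cells of a type and less RNA per cell cannot be told apart.

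Promoters of the members were searched for motifs of factors known to act on respiratory chain genes. A RefSeq window (GRCm38.p6, from 250 bases before to 50 after the start, the first listed for a gene) was found for 66 of the 81 members that are subunits or their isoforms. Searched on both strands were the NRF1 motif (GCGC and TGCGC with any 1 base between them), the ETS motif of GABPA (CCGGAAG), the YY1 motif (ATGGCGGC) and the ERRA motif (TCAAGGTCA), none of which contains another. The NRF1 letters were in 24.2% of the member windows and in 4.78% of the windows of all 27025 genes, and the GABPA letters in 22.7% and 9.12%. The YY1 letters were in 9.09% and 2.38% and the ERRA letters in 3.03% and 0.407%. Member windows were also richer in CpG, with a median of 19 CpG sites against 7 over all genes. The NRF1, ETS and YY1 letters all hold CpG.

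Members with and without each motif are given side by side, with no test. For comparison, 84.1% of all measured members and 52.3% of all named genes were lower. The 16 measured members with the NRF1 letters had a median of -0.23, with 13 lower, and the 48 without had one of -0.33, with 43 lower. For the GABPA letters the medians were -0.38 over 15 members, all 15 lower, and -0.29 over 49, with 41 lower. For the YY1 letters they were -0.42 over 6 members, 5 of them lower, and -0.29 over 58, with 51 lower. For the ERRA letters they were -0.25 over 2 members and -0.31 over 62. A match is a description of letters and not a site. Shown are the 150 bases before the start of 4 members, with matches in capitals and the sense strand 5′ to 3′ (GRCm38.p6). Within these 150 bases Ndufa6 (-0.85) had no match, Cox6b1 (-0.70) 1 GABPA match, Cox6a1 (-0.56) 1 NRF1 and 1 GABPA match, and Sdha (0.02) 3 NRF1 matches. In the full window Ndufa6 held 1 NRF1 match after the start, and Cox6a1 a second NRF1 match further upstream.
Ndufa6, chr15:82354292-82354441, minus strand: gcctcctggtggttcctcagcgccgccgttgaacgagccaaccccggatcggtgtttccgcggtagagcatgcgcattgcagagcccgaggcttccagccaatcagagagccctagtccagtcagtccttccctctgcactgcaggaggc
Cox6b1, chr7:30626115-30626264, minus strand: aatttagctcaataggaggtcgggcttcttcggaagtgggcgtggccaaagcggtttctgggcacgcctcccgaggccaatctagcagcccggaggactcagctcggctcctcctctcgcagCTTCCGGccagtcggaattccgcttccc
Cox6a1, chr5:115348959-115349108, minus strand: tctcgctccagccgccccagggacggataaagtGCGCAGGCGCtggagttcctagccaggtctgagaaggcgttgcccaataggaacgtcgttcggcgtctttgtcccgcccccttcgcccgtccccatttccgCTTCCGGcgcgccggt
Sdha, chr13:74350241-74350390, minus strand: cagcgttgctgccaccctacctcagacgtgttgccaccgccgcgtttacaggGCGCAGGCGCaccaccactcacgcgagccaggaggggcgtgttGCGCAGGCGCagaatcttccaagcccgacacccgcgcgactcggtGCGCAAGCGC

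The direction of the medians did not depend on how the arrays were processed. Under 11 other ways, the median over all members lay between -0.33 and -0.19, and the lowest and highest complex I medians were -0.42 and -0.28.

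**Figure D5:**
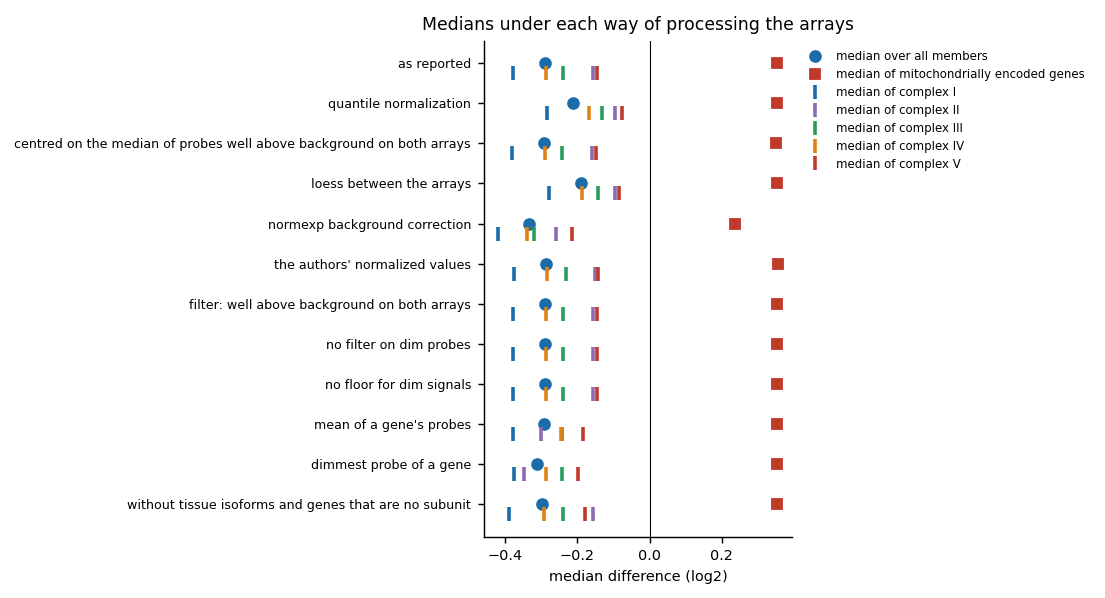
The rows are the ways of processing the arrays and the x axis is the median log2 difference (Δ/Δ-labelled array minus p38α+/+ array). Blue circles are all measured members, red squares the mitochondrially encoded genes and short bars the medians by complex. All medians of nuclear genes stay left of 0 in every row, and the mitochondrial median lies between 0.24 and 0.36.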

How the data were processed

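RNA of LT-HSCs was labelled with Cy3 and hybridized to 1 single-colour Agilent array per genotype, both on 1 slide and in 1 scan. The authors outsourced extraction, hybridization and normalization. They deposited the scanner intensity of every spot (Agilent Feature Extraction 11.5.1.1, per the labels, background-corrected and not normalized between arrays) and their own normalized log2 values of 35795 probes, which equal the log2 signal minus 1 constant per array (7.16 and 6.84). Control spots and spots flagged as non-uniform or outliers were left out, spots were averaged per probe, and the log2 processed signal was set to the array's 75th percentile (7.16 and 6.85). Probes were named through RefSeq (GRCm38.p6), and members kept the array's name. A gene was read at its brightest probe and kept if well above background on 1 or both arrays, and dim signals were floored at the array's lowest detected one. Members, lists and motifs were chosen with earlier results of these data known. Named are, per complex, the brightest member and the largest difference in each direction, members without signal, tissue isoforms with their partners, the Atp5g genes and the extremes of each list; others were named after their values were seen. Alternatives were quantile normalization, other centring, loess (span 0.3), normexp (offset 50), the authors' values, other filters and other probe choices. The steps were tested on simulated data. Calculations used R 4.3.3 with limma 3.58.1 for normexp, and Python 3.11.15 with statsmodels 0.14.6 for loess, numpy 2.4.6 and pandas 2.3.3 for the rest.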

Additional observations from a re-analysis of the deposited data

How the results depend on the processing

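No paired analysis was possible because each genotype has 1 array, and for the same reason no replicate could be left out. The median over all members stayed below 0 under all 11 alternatives (-0.33 to -0.19), as did each complex median, and the mitochondrial median stayed above 0 (0.24 to 0.36), with 11 or 12 of 13 genes higher. The complex II median was -0.30 with probes averaged per gene and -0.35 with the dimmest probe, where the second Sdhb probe enters. Members higher numbered 21 under loess against 13, and 74.4% were then lower. Members moderately higher (0.322 or more) numbered 0 with normexp and 1 with the centring on detected probes, the mean of probes or the dimmest probe. Members at least 2-fold lower numbered 3 with the dimmest probe, and 1 without a filter on dim probes (Cox7b2, with no signal). Members moderately lower ranged from 26 to 43. Counting the complexes by the place of the subunit gave -0.40 for complex I, -0.25 for complex IV and -0.18 for complex V. Among single genes, counting the mitochondrial ones and Mapk14, 6 moved by more than the spot SD with normexp, 6 with the mean of probes and 0 with loess; the largest was Sdhb, at -0.62 with the mean. The number of arrays limits all values to these 2 RNA samples, and the mitochondrial comparison and the count by place were added after values were seen.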
